A study of Mus musculus with 6 samples.

Results

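The genes described here were selected on the livers of mice that drank alcohol for 4 months. A probe was taken as a member when the ratio of the alcohol pool to the control pool was at least 2 on both arrays of that month, and 9 gene families named by the first letters of the array's gene name (Cyp, Reg, Ela, Pnlip, Gadd45, Fmo, Sult, Gst and Igfbp) were set aside. Of 41174 probes, 88 passed the ratio and 32 of these lay in the families set aside, 21 of them cytochrome P450 probes. This left 56 member probes for 54 gene names, of 28786 names on the array. Reg3b and Cyp4a31 belong to the families set aside by their current symbols, but they stay in because the array calls them Pap and BC013476. Since the 4-month ratios chose the members, those ratios are given as a description without a test, and the arrays of 1 and 2 months are the ones on which the members could be examined anew.

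The mice were males of the strain 129/Sv, aged 6 to 8 weeks when treatment began, with no transgene or deletion in either group. The alcohol group received the Lieber-DeCarli liquid diet with 4% ethanol freely, and the control group received a diet of equal calories in which maltose dextran replaced the ethanol, after 7 days in which all mice had the control diet. At each time point the liver RNA of 6 mice per group was combined into 1 pool, so that a month has 1 alcohol pool and 1 control pool. Both were hybridized together on 2 arrays, 1 with the alcohol pool in the dye Cy5 and 1 with it in Cy3. The 2 arrays of a month therefore repeat the same RNA. Their spread is technical and holds no difference between mice. In whole liver, fewer cells of a type and less RNA per cell cannot be told apart.

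The liver takes up ethanol and oxidizes it, and it answers foreign compounds and fatty acids through nuclear receptors. CAR and PXR raise enzymes and transporters for foreign compounds, and PPAR-alpha raises enzymes of fatty acid oxidation. Immediate early genes such as Jun answer stress and growth signals within minutes to hours. Metallothioneins bind zinc and copper and are made after metal exposure, glucocorticoids and oxidative stress. Trypsinogens, carboxypeptidases and pancreatic ribonuclease are made in bulk by the acinar cells of the pancreas and are not typical products of hepatocytes.

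The arrays carried 43379 gene spots each, and between 73.3% and 90.3% of them were well above background, by array and pool. All 12 hepatocyte markers checked, such as albumin, were well above background in every pool. The arrays of 1 month shared 1 slide, and those of 2 and 4 months shared another, so the slide cannot be told apart from the step between 1 month and the later months. Across all probes the log2 ratios of the 2 arrays correlated at 0.14 at 1 month, -0.23 at 2 months and -0.23 at 4 months (Pearson, across probes that share a pool and are not independent). At 4 months 487 probes reached 2-fold where alcohol was in Cy5 and 1357 where it was in Cy3, against 88 that did so on both arrays. A further 163 probes were 2-fold apart in opposite directions on these 2 arrays, and 71 were lowered 2-fold on both. Medians and tests therefore used the mean of a dye-swap pair, and membership and the counts above or below a line required both arrays.

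**Figure D1:**
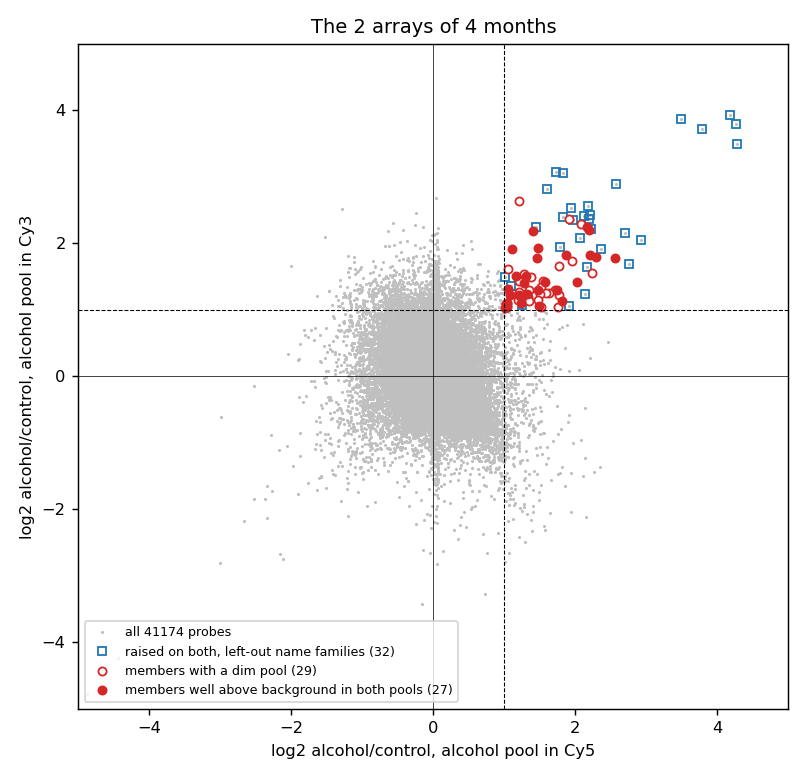
Log2 ratio of the alcohol pool over the control pool on the 2 arrays of 4 months, with the alcohol pool in Cy5 on the horizontal axis and in Cy3 on the vertical axis, for all 41174 probes. Dashed lines mark a 2-fold ratio. The 56 members (red) and the 32 probes of the families set aside (blue squares) fill the upper right corner by construction, and 29 of the members (open circles) were not well above background in both pools on both arrays.

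Brightness divides the members, and a pool that the scanner software did not flag as well above background is called dim below. In 27 probes for 26 genes both pools were well above background on both 4-month arrays, and their mean ratio at 4 months ran from 2.03-fold to 4.61-fold. In 9 probes the alcohol pool was well above background on both arrays and the control pool on neither, so that the ratio is only a limit. The limit is the alcohol pool's level over the higher of the control pool's level and the dimmest level accepted as well above background. It ran from at least 1.23-fold to at least 2.63-fold, and it reached 2-fold in 3 probes, Abcc4, Rgs1 and Jun. A further 10 probes had the alcohol pool above background on 1 array and the control pool on neither, with limits from at least 1.09-fold to at least 1.40-fold. In 5 probes (4933404M02Rik, Id1, 1110014L15Rik, Pik3r3 and 4933425B07Rik) the control pool passed on 1 array. In the last 5, for Arhgef39, Reg3b, Timeless, S100a8 and Olfr670, neither pool was well above background, so their ratios carry no measured level.

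At 1 month 3 of the 56 members (5.36%) were 2-fold above control on both arrays, beside 0.0850% of all probes. These were NAP026914-1, Abcd2 and Cyp4a31. All 3 were among the 20 members well above background in both pools at that month, and the same count over probes that bright was 0.0969%. At 2 months 4 of the 56 (7.14%) reached 2-fold on both arrays, beside 0.0899% of all probes. These were NAP026914-1, Tsku, Cyp4a31 and Jun, and the control pool of the last was too dim to pass the background flag. Among the members bright in both pools at 2 months 3 of 21 passed, beside 0.0722% of such probes.

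Most of the other members lay above 0 at the earlier months without reaching 2-fold. At 1 month 33 of the 56 (58.9%) were above 0 on both arrays, beside 31.1% of all probes, and 10 (17.9%) were below 0 on both, beside 22.2%. These counts include probes dim in both pools, whose signs carry no measured difference. Red cell markers stood apart at the same month: the summed signal of 6 erythroid genes was 3.34 and 2.73 times control on the 1-month arrays, with Hbb-bt at 2.27 and 1.66 and Hba-a1 at 1.64 and 1.37, the 2 globin genes past 2-fold. It was 0.761 and 1.04 times control at 2 months and 1.104 and 1.76 at 4 months, where Alas2, the first enzyme of heme synthesis in red cells, stood at -2.28 and -1.73. At 1 month the 9 endothelial markers had a median of 0.24, with a summed signal of 1.20 and 1.25 times control. The 11 macrophage and Kupffer cell markers had a median of 0.23, with 1.03 and 1.18 times control. Medians of the other cell type lists ran from -0.08 for gut epithelium to 0.16 for the salivary gland. The part of blood and of other cell types in the members' values was not tested. Among the 20 members well above background in both pools at 1 month 14 were above 0 on both arrays, beside 23.3% of such probes. At 2 months 30 of the 56 (53.6%) were above 0 on both arrays, beside 16.4%, and 10 were below 0 on both, beside 23.9%. Among the 21 bright in both pools 14 were above 0 on both, beside 17.0%. The median log2 ratio of the members was 0.16 at 1 month and 0.40 at 2 months, where the median of all probes was 0.02 and -0.00. The members' medians depended on the processing. They were 0.05 at 1 month with the deposited log ratios and 0.19 at 2 months after normexp background correction with loess. At 4 months the median of the members was 1.40, which the selection fixed, beside 0.214% of probes that reached 2-fold on both arrays.

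The months that did not enter the selection were also tested together. The mean log2 ratios of 1 and 2 months were fitted with limma as 2 separate pairs of pools, over the 35854 probes that passed the background flag in 1 pool or more on any of these arrays, of which 43 were members, and ± below is the standard error (SE) of that fit, over 2 monthly means. At an adjusted p of 0.05 limma with Benjamini-Hochberg adjustment called 0 members and 0.00% of all probes, so no member passed. At an unadjusted p under 0.05, 22 of the 43 members were above control, beside 2.40% of all probes tested, and 2, Ppp1r3g and Agxt2l1, were below it. Without the brightness filter 20 of all 56 members passed the unadjusted threshold above control, beside 1.60% of 41174 probes. NAP026914-1 had the smallest adjusted p of any probe at 0.0513 (limma). The call depends on the processing: members called were 3 after normexp background correction with loess (NAP026914-1, Cyp4a31 and Abcd2), all above control, where limma called 26 of 35854 probes (0.0725%) above control and 36 in all. Among probes well above background in both pools, 2 members were called above control (NAP026914-1 and Cyp4a31), beside 10 of 28036 probes (0.0357%) above control and 16 in all.

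**Figure D2:**
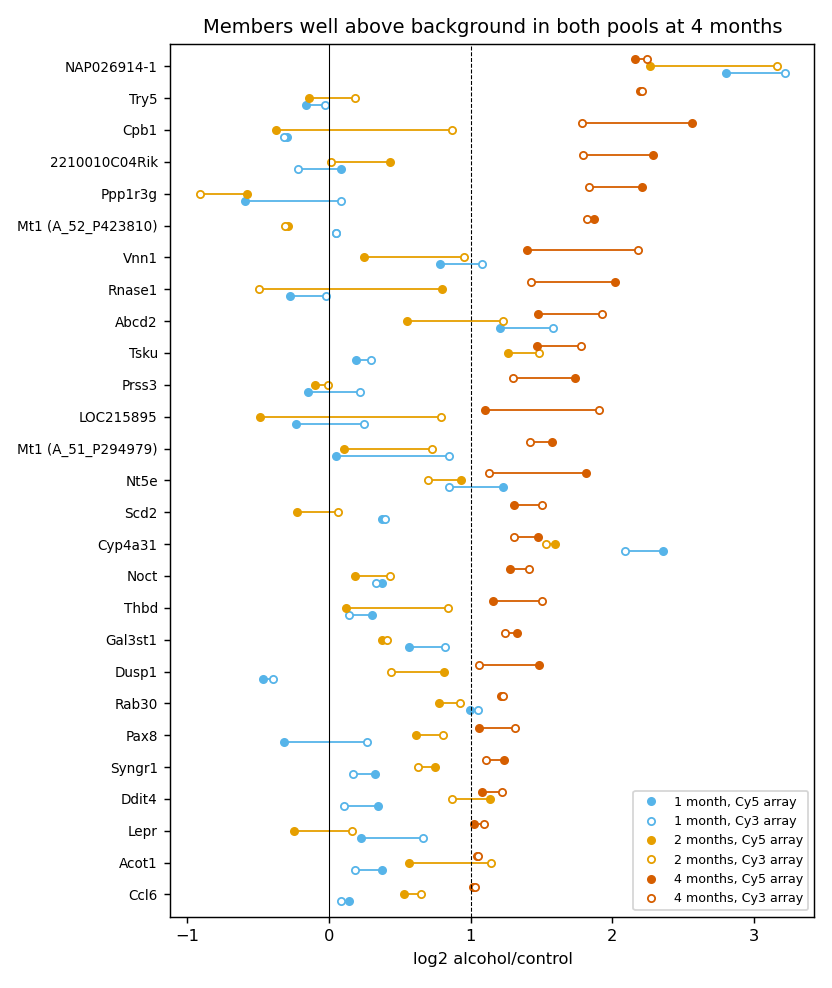
Log2 ratio of alcohol over control for the 27 member probes well above background in both pools at 4 months, with 1 filled point for the array with alcohol in Cy5 and 1 open point for the array with alcohol in Cy3 in each month, and a line joining them. The dashed line marks 2-fold. The 4-month points all lie to the right of it because that chose the probes, and at 1 month NAP026914-1, Cyp4a31 and Abcd2 lie to the right of it on both arrays.

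The 5 members sorted under foreign compounds, transport and fatty acids (Cyp4a31, Abcd2, Vnn1, Acot1 and Abcc4) had a median log2 ratio of 0.93 after 1 month, 0.89 after 2 and 1.70 after 4. In 4 of them both pools were well above background at 4 months, and the values of all 5 were above 0 on both arrays of every month, those of Abcc4 at 1 month being dim in both pools. The shares of all probes above 0 on both arrays were 31.1%, 16.4% and 15.8% at 1, 2 and 4 months, and the selection fixed the members' sign at 4 months. Scd2 also handles fatty acids but was sorted under nutrient storage, and it had -0.23 and 0.06 at 2 months. That all 5 were above 0 therefore depends on the sorting. Roles were assigned with the values known, so the counts by role are descriptions. Pairs of values give the array with alcohol in Cy5 first, and sets joined by "then" run from 1 to 2 to 4 months. Where a gene has several probes, brighter refers to the signal of the spot, which does not give the amount of a transcript.

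Cyp4a31 encodes a fatty acid omega-hydroxylase of the family that PPAR-alpha controls. Its log2 ratios were 2.36 and 2.09 on the arrays of 1 month, 1.60 and 1.53 on those of 2 and 1.48 and 1.30 on those of 4, so it was highest at 1 month and the arrays of different months did not overlap. The mean of 1 and 2 months was 1.89 ± 0.17 (SE), with an adjusted p of 0.42 in limma, 0.0033 after normexp and loess and 0.0175 among probes well above background in both pools. A brighter probe for the same gene had mean ratios of 2.47, 1.19 and 1.18 and missed membership because its Cy3 array stood at 0.92.

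Abcd2, a transporter that carries very long chain fatty acids into peroxisomes and is higher in female than in male mouse liver, had log2 ratios of 1.21 and 1.58, then 0.55 and 1.23, then 1.47 and 1.92. Its ratio was lowest at 2 months, where it overlapped the 1-month arrays. The adjusted p for 1 and 2 months was 0.60 in limma and 0.0293 after normexp and loess. The second Abcd2 probe was dim, with mean ratios of 0.98, 0.59 and 1.05.

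Vnn1, the pantetheinase that recycles coenzyme A precursors and a known PPAR-alpha target, had log2 ratios of 0.78 and 1.08 after 1 month, 0.25 and 0.96 after 2 and 1.40 and 2.18 after 4. Its 4-month arrays lay above those of both earlier months. Acot1, a thioesterase that frees fatty acids from coenzyme A in the cytosol, had 0.38 and 0.18, then 0.56 and 1.14, then 1.04 and 1.05. Its 2-month and 4-month arrays overlapped, and those of 1 month lay below both. Of 34 listed PPAR-alpha targets, the brightest probe was 2-fold above control on both arrays for 2 genes after 1 month, 1 after 2 and 2 after 4, the last being Acot1 and Vnn1, and none was lowered 2-fold. Among all probes 0.0850%, 0.0899% and 0.214% were so raised, in order of month. Acot1 and Vnn1 are members, so the selection fixed their 4-month count. The list's median was 0.20, 0.17 and 0.13 in order of month, beside medians of all probes within 0.02 of 0.

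Abcc4, an exporter of conjugated compounds and bile acids, had log2 ratios of 0.25 and 0.09 after 1 month, 1.04 and 0.81 after 2 and 2.08 and 2.29 after 4. The probe was dim: neither pool was well above background at 1 month, and at the later months only the alcohol pool was, which gives at least 1.21-fold at 2 months and at least 2.29-fold at 4 months. A brighter Abcc4 probe showed 0.14 and 0.36 at 4 months. Of 25 listed CAR and PXR targets outside the families set aside, 1 was by its brightest probe 2-fold above control on both 1-month arrays (beside 0.0850% of all probes) and none was at the later months, and the medians were 0.13, 0.17 and 0.36.

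Mt1, metallothionein 1, entered with both of its probes. The probe with the higher signal had log2 ratios of 0.05 and 0.85 after 1 month, 0.11 and 0.73 after 2 and 1.57 and 1.42 after 4, a mean of 2.82-fold at the last. The other had 0.05 and 0.05, then -0.29 and -0.31, then 1.87 and 1.82, a mean of 3.60-fold. The probes differed in sign at 2 months, and at 4 months their arrays did not overlap. Mt2, its neighbour in function, stood at 0.65 and 0.32 at 4 months and was not a member. Among 20 listed NRF2 targets outside the families set aside, Mt1 was the 1 gene 2-fold above control on both 4-month arrays, 0 were at the earlier months, and the list's median at 4 months was 0.12. As a member, Mt1 passed that ratio by selection, beside 0.214% of all probes.

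Promoters were read for the members that matched RefSeq, and those of Mt1 and Dusp1 are shown because these genes have both pools well above background in every month and hold a match of the motif classes known for such genes. Each is the 250 bases before the RefSeq start of assembly GRCm38.p6, read 5′ to 3′ on the gene's own strand. Capitals mark TGCACNC in Mt1, a spelling of the metal response element core, and TGACGTCA (the cyclic AMP response element) and CACGTG (the E-box bound by clock factors) in Dusp1.
Mt1, chr8:94178839-94179088, plus strand: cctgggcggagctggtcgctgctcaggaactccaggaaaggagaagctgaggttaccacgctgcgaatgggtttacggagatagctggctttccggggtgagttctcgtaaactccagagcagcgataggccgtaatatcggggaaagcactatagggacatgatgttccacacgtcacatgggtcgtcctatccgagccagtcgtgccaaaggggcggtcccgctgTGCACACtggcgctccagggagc
Dusp1, chr17:26508473-26508722, minus strand: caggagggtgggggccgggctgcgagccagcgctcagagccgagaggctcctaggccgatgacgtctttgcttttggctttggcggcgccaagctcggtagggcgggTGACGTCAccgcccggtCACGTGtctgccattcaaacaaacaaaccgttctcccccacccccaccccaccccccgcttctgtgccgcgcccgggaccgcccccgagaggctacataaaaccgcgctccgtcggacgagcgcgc
Of the member genes, 27 matched with 36 promoters. TGACGTCA was in 1 of the 36 (Dusp1) and in 1.55% of all 32851 promoters. CACGTG was in 3 (Abcc4, Arhgef39 and Dusp1) and in 6.02% of all. TGANTCA, a looser spelling of the site of Jun and Fos dimers, was in 3 promoters of Prom1 and Zfp239 and in 6.75% of all. In a Prom1 promoter the match reads TGAATCA, which the spelling takes in but that site does not. The direct repeats of AGGTCA with 1 base between (bound by PPAR-alpha) or 4 (bound by CAR and PXR) were in none, and in 0.0335% and 0.0152% of all. TTCNNNGAA, the STAT site, was in 2 (Reg3b and Rnase1) and in 7.02% of all. The metal response element cores TGCACNC and TGCGCNC were in 3 and 8 member promoters and in 10.4% and 12.5% of all. Both strands were searched, matches of different motifs may overlap, and a match is a description of letters, not a site.

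The stress and immediate early members were Jun, Dusp1, Ddit4, Rgs1, Noct and Id1. All 7 of their probes, 2 of them for Id1, were above 0 on both arrays at 2 months, beside 16.4% of all probes, and 3 of the 7 at 1 month, beside 31.1%. Jun and other dim probes are among them. Their median log2 ratio was 0.29, 0.84 and 1.32 at the 3 months. Jun, a subunit of the transcription factor AP-1, had log2 ratios of -0.40 and -0.23 after 1 month, 1.35 and 1.43 after 2 and 1.77 and 1.66 after 4. Its control pool was not well above background in any month, nor was its alcohol pool at 1 month, which gives at least 1.39-fold at 2 months and at least 2.01-fold at 4 months. Dusp1, the phosphatase that switches off stress-activated MAP kinases, was well above background in all pools. It had -0.47 and -0.39 after 1 month, 0.81 and 0.44 after 2 and 1.48 and 1.06 after 4, so the arrays of the months were in order and did not overlap.

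Ddit4, an inhibitor of mTORC1 made under stress, glucocorticoids and energy shortage, had log2 ratios of 0.35 and 0.10, then 1.13 and 0.87, then 1.08 and 1.22. It differed little between 2 and 4 months, whose arrays overlapped. Rgs1, a brake on G protein signalling found in lymphocytes, had -0.11 and 0.69, then 0.29 and 1.74, then 1.91 and 2.37, with a dim control pool at 4 months and a limit of at least 2.63-fold. Both Rgs1 pools were dim at 1 month, and its control pool was dim on 1 array at 2 months. Of the other T and NK cell markers at 4 months, the brightest were Cd4 at -0.04 and 0.02, Cd3g at 0.00 and -0.05 and Cd3e at 0.24 and -0.50. Of all 10 genes, 3 were above 0 on both 4-month arrays, among them Rgs1 by its selection, and 0 below 0 on both, beside 15.8% and 18.1% of all probes. Their summed signal was 1.02 and 0.962 times control. The part of lymphocytes in the Rgs1 value was not tested.

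Noct, a rhythmic enzyme first described as a deadenylase, had 0.37 and 0.33, then 0.18 and 0.43, then 1.28 and 1.41. Both Id1 probes, for an inhibitor of basic helix-loop-helix factors that bone morphogenetic proteins induce in liver, were dim. The brighter had 0.75 and 0.72, then 1.12 and 0.53, then 1.21 and 1.43, and the other had 1.11 and -0.37, then 1.07 and 0.62, then 1.04 and 1.06, with opposite signs at 1 month. Of 32 listed immediate early genes 3, Jun, Dusp1 and Rgs1, were 2-fold above control on both 4-month arrays, against 1 on those of 2 months and 0 on those of 1 month. The 3 are members, so the selection fixed their 4-month count. The shares of all probes were 0.214%, 0.0899% and 0.0850% at 4, 2 and 1 months. Fos was too dim in both pools at 4 months to be read, Junb stood at 0.01 and -0.09, Atf3 at 0.40 and -0.32 and Egr1 at -0.65 and -0.86. The list's median was 0.06 at 4 months. Of 29 listed ATF4 and endoplasmic reticulum stress genes Ddit4, selected for its 4-month ratio, was the 1 past 2-fold at 4 months, with a list median of 0.06. No gene of 19 listed clock genes reached it.

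Try5, 2210010C04Rik, Cpb1, Prss3 and Rnase1 are digestive enzymes of the exocrine pancreas, and the secreted lectin Reg3b was sorted with them. The 6 had a median log2 ratio of -0.12 after 1 month, 0.15 after 2 and 1.88 after 4. None was above 0 on both arrays at 1 month, beside 31.1% of all probes, and 4 were below 0 on both, beside 22.2%. Those 4 include Reg3b and Rnase1, which had a dim pool. At 2 months 1 was above 0 on both, beside 16.4%. Try5, a trypsinogen, had log2 ratios of -0.17 and -0.03, then -0.14 and 0.18, then 2.19 and 2.21, a mean of 4.60-fold at 4 months. 2210010C04Rik, another gene of the trypsin cluster, had 0.09 and -0.22, then 0.43 and 0.01, then 2.29 and 1.79, a mean of 4.11-fold. A brighter 2210010C04Rik probe stood at 0.52 and -0.24 at 4 months. In the member probes of both genes the 4-month arrays lay far from those of the earlier months, which overlapped each other.

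Cpb1, carboxypeptidase B, had log2 ratios of -0.30 and -0.32, then -0.38 and 0.87, then 2.56 and 1.79, a mean of 4.51-fold at 4 months. Its processed signal at 4 months was 256 and 185 in the alcohol pool and 43.4 and 53.6 in the control pool. The member probe for Prss3, a further trypsinogen, had -0.15 and 0.22, then -0.10 and -0.01, then 1.73 and 1.30, and a brighter Prss3 probe had 1.56 and 0.73 at 4 months. Rnase1, pancreatic ribonuclease, had -0.27 and -0.02, then 0.79 and -0.50, then 2.02 and 1.42, whereas a brighter Rnase1 probe stood at 0.46 and -0.53 at 4 months. The Rnase1 member probe had a pool dim on at least 1 array at 1 and 2 months, and so had Cpb1 at 2 months. Reg3b, a lectin made by injured pancreas and gut, was too dim in both pools at 2 and 4 months. At 1 month its control pool was well above background and its alcohol pool was not, with log2 ratios of -1.66 and -0.79, at least 1.22-fold lower with alcohol.

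A list of 26 acinar genes puts these beside the rest of that cell type. By the brightest probe of each gene none was 2-fold above control on both arrays of the earlier months, and 5 were on those of 4 months, namely Try5, Cpb1 and, from the families set aside, Cela2a, Pnliprp1 and Reg1. At 4 months 18 of the 26 were above 0 on both arrays and 0 were below 0 on both, with a list median of 0.39, beside -0.01 and 0.02 at 1 and 2 months. Of all probes 15.8% were above 0 on both 4-month arrays and 18.1% below 0 on both, and 13.6% of those well above background in both pools were above 0 on both. The 18 include Try5, Cpb1 and other genes that were selected or set aside for their 4-month ratio. In each pool 25 of the 26 were well above background at 4 months, so these genes were also read in the control pool. The summed signal was 1.32 and 1.17 times control on the 2 arrays of 4 months, 1.104 and 0.949 at 2 months and 0.953 and 0.969 at 1 month. Among the brightest acinar probes at 4 months Ctrb1 stood at 0.31 and 0.19, Sycn at 0.08 and 0.14, Ctrc at 0.54 and 0.25 and Klk1 at 0.16 and -0.11. None of 10 endocrine pancreas genes was 2-fold above control, and their median was -0.02 at 4 months. The part of pancreatic cells in the values of the 6 members was not tested.

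**Figure D3:**
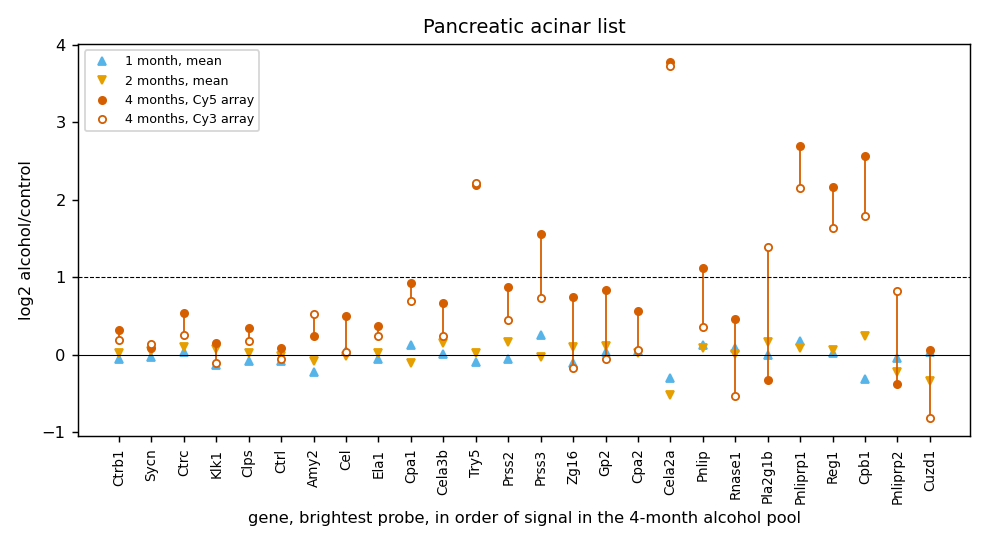
Log2 ratio of alcohol over control for the 26 genes of the pancreatic acinar list, brightest probe of each, in order of signal in the 4-month alcohol pool. Triangles give the monthly mean at 1 and 2 months and circles the 2 arrays of 4 months. At 1 and 2 months the means lie between -0.52 and 0.25. At 4 months Ctrb1, Sycn, Ctrc and Klk1, among the brightest probes, lie under the dashed 2-fold line, while Try5, Cela2a, Pnliprp1, Reg1 and Cpb1 lie above it.

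Members of nutrient storage and signalling differed among themselves at the earlier months. Ppp1r3g, which directs protein phosphatase 1 to glycogen after feeding, had log2 ratios of -0.59 and 0.09 after 1 month, -0.58 and -0.91 after 2 and 2.21 and 1.83 after 4. It was the member well above background that lay lowest at 2 months and it turned to 4.06-fold above control at 4 months. Its mean over 1 and 2 months was -0.50 ± 0.14 (SE), with an adjusted p of 0.98 in limma. That mean rests in part on dim values, since at 1 month the alcohol pool was dim on both arrays and the control pool on 1. Scd2, a desaturase that makes monounsaturated fatty acids, had 0.37 and 0.39, then -0.23 and 0.06, then 1.31 and 1.504. Lepr, the leptin receptor, had 0.22 and 0.66, then -0.24 and 0.16, then 1.02 and 1.09, just inside the threshold, and its second probe had means of 1.24, -0.03 and 0.48 in order of month. For both member probes the 2-month arrays lay below those of 1 month.

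Pik3r3, a regulatory subunit of phosphoinositide 3-kinase, had 0.00 and 0.39, then 0.13 and 0.83, then 1.75 and 1.05 on a dim probe. Its 3 other probes had means of -0.18, -0.37 and -0.15 at 4 months. Agxt2l1, a phospholyase of phosphoethanolamine, had -0.94 and -0.80 at 1 month, where only the control pool was well above background and alcohol was at least 1.55-fold lower. At 4 months it had 1.77 and 1.23 with only the alcohol pool above background, at least 1.35-fold higher, while a brighter Agxt2l1 probe stood at -0.06 and -0.23.

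Of the members that mark immune, vascular or other surface functions, 3 of 7 were well above background in both pools at 4 months. Ccl6, a chemokine of macrophages, had log2 ratios of 0.14 and 0.09, then 0.53 and 0.65, then 1.01 and 1.03, in order and without overlap between months. Its fold at 4 months, 2.03, was the smallest of the members. The summed signal of the 11 macrophage and Kupffer cell markers was 0.945 and 1.13 times control on the 4-month arrays, and 5 of the 11 were above 0 on both arrays and 0 below 0 on both, beside 15.8% and 18.1% of all probes. Each cell type count of immune and vascular markers includes a member whose selection placed it above 0, here Ccl6. Clec4f stood at -0.29 and 0.29, Marco at 0.45 and 0.08 and C1qa at 0.09 and 0.44. Thbd, the endothelial thrombin receptor, had 0.30 and 0.14, then 0.12 and 0.84, then 1.16 and 1.503. Both of its pools were dim at 1 month, and its control pool was dim on 1 array at 2 months. The summed signal of the 9 endothelial markers was 1.11 and 0.914 times control at 4 months. Of the 9, 3 were above 0 on both 4-month arrays, Thbd included, and 1 was below 0 on both, beside 15.8% and 18.1% of all probes. Pecam1 stood at 0.08 and 0.39 and Stab2 at -0.08 and -0.13.

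Nt5e, the surface enzyme that makes adenosine from AMP, had 1.23 and 0.85 after 1 month, 0.94 and 0.70 after 2 and 1.81 and 1.13 after 4. It was not well above background at 1 month, and its control pool was dim on 1 array at 2 months. Its mean over 1 and 2 months was 0.93 ± 0.10 (SE), with an adjusted p of 0.57 in limma. The other 4 were dim. S100a8, a calcium-binding protein of neutrophils, was under the background flag in both pools in every month. Of the 10 neutrophil markers 4, S100a8 included by its selection, were above 0 on both 4-month arrays and 0 below 0 on both, beside 15.8% and 18.1% of all probes. Mpo stood at 0.10 and -0.13 and S100a9 at 0.04 and 0.02, whereas Lcn2, which hepatocytes also make in the acute phase, stood at 0.71 and 1.38. The summed list signal was 1.06 and 1.00 times control. Retnla, a product of alternatively activated macrophages, had -2.53 and -1.21 at 2 months against 1.34 and 1.13 at 4 months, and its second probe gave 2.15 and -2.11 at 4 months with both pools dim. Ptgfr, the prostaglandin F receptor, and Prom1, a membrane protein of progenitor cells that is higher in female liver, had limits of at least 1.18-fold and at least 1.61-fold at 4 months, and a brighter Prom1 probe stood at 0.48 and -0.08. The part of other cell types in these values was not tested.

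Among the 11 other named members, 5 were well above background in both pools at 4 months. Tsku, a secreted leucine-rich protein of the liver, had log2 ratios of 0.19 and 0.30, then 1.26 and 1.49, then 1.47 and 1.78, with both pools well above background throughout. A brighter Tsku probe stood at 0.09 and 0.07 at 4 months. Rab30, a small GTPase of the Golgi, had 1.00 and 1.06, then 0.78 and 0.92, then 1.21 and 1.23, the steadiest of them, although at 1 month neither pool was well above background. Its mean over 1 and 2 months was 0.94 ± 0.10 (SE), with an adjusted p of 0.57 in limma. Gal3st1, which makes sulfatide lipids, had 0.57 and 0.82, then 0.37 and 0.41, then 1.32 and 1.24, with the control pool dim on 1 array at 1 month and at 2 months. Syngr1, a vesicle membrane protein, had 0.32 and 0.17, then 0.74 and 0.62, then 1.23 and 1.11, with the control pool dim at 1 month, while a brighter Syngr1 probe stood at 0.77 and 0.42 at 4 months and another at 0.40 and 0.16. The probe named Pax8, after a thyroid and kidney transcription factor, had -0.32 and 0.27, then 0.62 and 0.80, then 1.06 and 1.32, and a brighter probe of that name stood at -0.05 and 0.22. Both pools of the Pax8 member probe were dim at 1 month, and its control pool was dim on 1 array at 2 months. Car12, a carbonic anhydrase, had 0.69 and 1.25, 0.90 and 0.14, and 1.21 and 2.64 on a dim probe, while its brighter probe stood at -0.14 and 0.01. Zfp239, a zinc finger protein, had 0.52 and 0.23, then -0.70 and -0.59, then 2.23 and 1.56, with both pools dim before 4 months and the control pool dim also then, which gives at least 1.30-fold. Arhgef39, Timeless, Gucy2e and Olfr670 were at or under background in at least 1 pool in every month.

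The 13 transcripts known by a cDNA, a prediction or an array label had log2 means between 1.07 and 2.21 at 4 months, and 2 of them were well above background in both pools. NAP026914-1 had log2 ratios of 2.80 and 3.22 after 1 month, 2.27 and 3.16 after 2 and 2.16 and 2.25 after 4. It was over 4-fold above control on every array, the arrays of 1 and 2 months overlapped, and those of 4 months lay below both. LOC215895, the other, had -0.23 and 0.25 after 1 month, -0.48 and 0.79 after 2 and 1.103 and 1.91 after 4. The remaining 11 were dim in at least 1 pool. Of these 11, 4933404M02Rik was highest at 1 month, with 0.79 and 0.59, and AK046870 the lowest there, with -0.41 and -0.68, both not well above background.

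The level of each pool, scaled to the 75th percentile of its channel, was compared between months in the 21 member probes well above background in both pools at 2 and 4 months. The alcohol level was higher at 4 than at 2 months in 16 of them and the control level lower in 12, with both in 8. Over 31457 probes as bright these shares were 49.4%, 51.0% and 8.80%. Since the members were chosen for a high alcohol level over control at 4 months, such changes are in part set by the choice. The median change of the alcohol level was 0.91 log2 and that of the control level -0.06, beside -0.01 and -0.01 over all of those probes. The alcohol level was higher by at least 1 in 10 of the 21 and the control level lower by at least 1 in 2. No share over all probes was taken at that cut, and these counts too are in part set by the choice. Each pool comes from different mice of different ages and slides may differ, so the levels are described without a test.

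In Try5 the alcohol level went from -1.58 to 0.43 between 2 and 4 months while the control level stood at -1.60 and -1.77, and in 2210010C04Rik it went from -3.21 to -0.82 with control levels of -3.42 and -2.86. In these trypsinogen probes the alcohol level was the one that differed more between the months. In Vnn1 the alcohol level was 1.13 and 1.14 at 2 and 4 months and the control level 0.53 and -0.65, so there the control pool was the lower one. Acot1 was lower at 4 than at 2 months in both pools, 2.80 to 1.69 with alcohol and 1.95 to 0.64 in control. Ddit4 was higher at 4 months in both, 0.23 to 1.58 with alcohol and -0.77 to 0.43 in control. The 2 Mt1 probes differed in this: the dimmer moved with the alcohol pool (-0.74 to 1.35) and the brighter with the control pool (4.57 to 3.65).

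**Figure D4:**
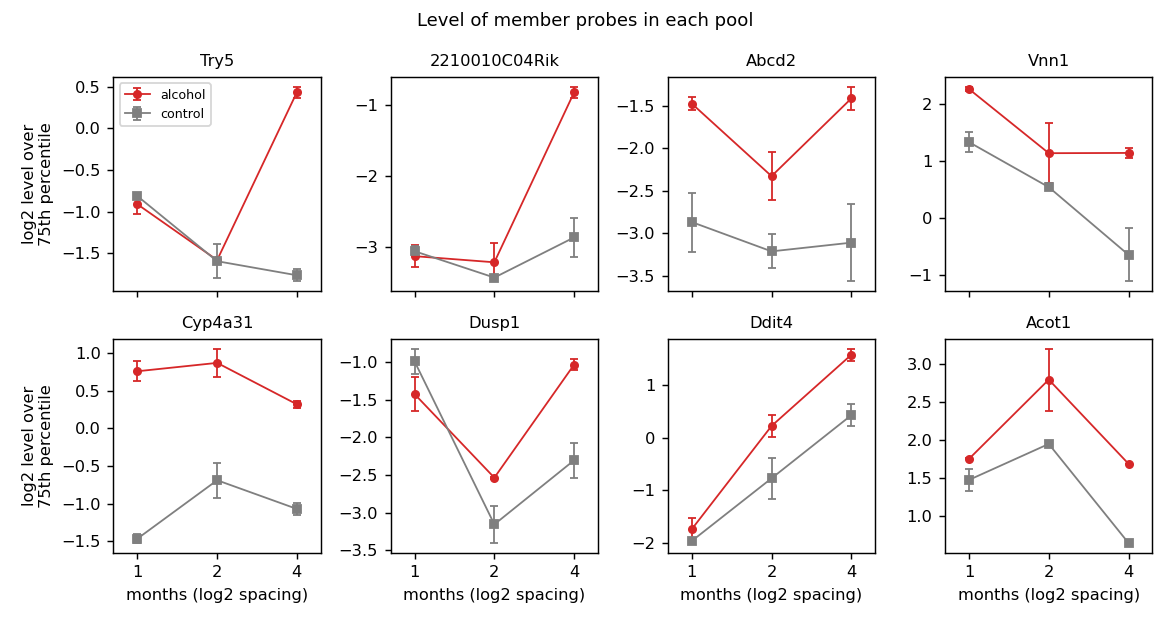
Log2 level of 8 member probes in the alcohol pool (red circles) and the control pool (grey squares) at 1, 2 and 4 months, relative to the 75th percentile of that channel, with bars of 1 SD over 2 arrays of 1 pool. The vertical axes differ between panels. Try5 and 2210010C04Rik separate at 4 months by a higher alcohol level, Vnn1 has a lower control level at 4 months, and Cyp4a31 and Abcd2 are apart in every month.

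Many member genes have a second probe. For 2 genes, Mt1 and Id1, both probes were members. Another 23 genes had 28 probes that were not members, of which 17 for 16 genes were well above background in both pools at 4 months. The mean log2 ratio of these 17 had a median of 0.15 at 4 months, from -0.15 to 1.18. In 3 genes, Cyp4a31, Prss3 and Nt5e, it reached 1, and 13 of the 17 probes were under 0.5. The member probes were picked for their high values and these others failed the same rule, so that their lower values are in part set by the selection. Probes of a gene may also detect different transcripts, and this was not tested.

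**Figure D5:**
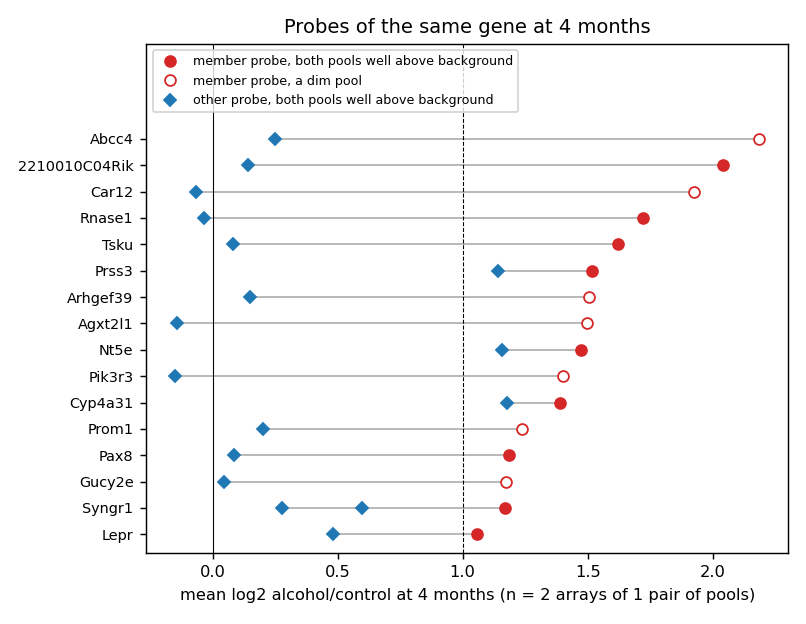
Mean log2 ratio of alcohol over control at 4 months for the 16 member genes with another probe well above background in both pools. Red circles are the member probes, open where a pool was dim, and blue diamonds the other probes. The diamonds of Cyp4a31, Prss3 and Nt5e lie beyond the dashed 2-fold line, and 13 of the 17 lie under 0.5.

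The threshold cut through a continuous range. Just inside, by the lower of the 2 ratios, lay Ccl6 at 2.02 and Lepr at 2.03. Just outside, among probes as bright, lay the second Nt5e probe at 1.99 and Cebpd, a transcription factor of the acute phase response, at 1.99. Cebpd had log2 ratios of -0.16 and -0.07, then 0.59 and 0.94, then 0.99 and 1.09.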

How the data were processed

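Liver RNA pools were compared on 6 two-colour Agilent arrays. The authors deposited Feature Extraction 9.1.1.1 output, in which each intensity is background-subtracted and dye-normalized and each LogRatio is log10 of Cy5 over Cy3. The deposited table of log10 ratios was already turned to alcohol over control: each of the 40929 probes with 1 spot differed from its scanner ratio by at most 0.02 log2. Here the ratio of the processed intensity in the alcohol channel to that in the control channel was taken, averaged over spots, as log2, and then over the dye-swap pair. Control spots were left out and no spot carried an outlier flag. Of 41174 probes, 22951 matched a current symbol through RefSeq (GRCm38.p6), 38 of them members; the others keep the array's name. For limits, each channel was taken after loess and Aquantile, where dye bias can remain.

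Tests used limma 3.58.1 in R 4.3.3, with Benjamini-Hochberg adjustment. Tested on simulated data for 35854 probes at 1 and 2 months, it recovered 63.7%, 98.9% and 99.7% of log2 changes of 1, 2 and 3, with 7.43%, 6.57% and 8.04% false calls. The simulation moved 200 probes by the same size in both months, with a spread drawn from the fitted prior. Adjusted p-values depend on how many probes change. These rates therefore need not hold for the measured values, where limma called 0 probes. Tables were made with pandas 2.3.3 and numpy 2.4.6 in Python 3.11.15 and plots with matplotlib 3.10.9. The members and the 27 lists, which use each gene's brightest probe (Elane, matched by an old name, was left out of the acinar list), were chosen with earlier results of these data known. Named genes were the 20 members highest by their lower 4-month ratio among those bright in both pools, members 2-fold above control at another month or in a list, the 5 highest with only a limit, those at the threshold, and bright genes of each cell type list. Others named were chosen after their values were seen, as were the metal response element cores. The alternatives were the deposited log ratios, normexp (offset 50) with loess, centring, brightness filters, folds of 1.5 and 3, and each array left out. The number of arrays limits the precision.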

Additional observations from a re-analysis of the deposited data

Results flagged for a closer look

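In each of the 2 earlier months 10 of the 56 member probes (17.9%) lay below 0 on both arrays. The share of all probes was 22.2% at 1 month and 23.9% at 2 months, so the members' share was not the higher one. The members so counted lay above 0 on both arrays of 4 months, a direction fixed by the selection, and the difference between months was not tested. At 1 month the probes bright in both pools were those of Dusp1 with a mean log2 ratio of -0.43, Cpb1 with -0.31 and Try5 with -0.10. With a pool dim on at least 1 array, the values were -1.23 for Reg3b, -0.87 for Agxt2l1, -0.55 for AK046870, -0.46 for AK089475, -0.35 for 1700129I04Rik, -0.32 for Jun and -0.15 for Rnase1. At 2 months the probes bright in both pools were those of Ppp1r3g with -0.75, Mt1 (the probe with the lower signal) with -0.30 and Prss3 with -0.052. With a pool dim on at least 1 array, the values were -1.87 for Retnla, -0.64 for Zfp239, -0.47 for Prom1, -0.34 for Olfr670, -0.32 for Agxt2l1, -0.25 for Arhgef39 and -0.0386 for AK086901. With 2 arrays a month no single array could be tested as standing apart.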

How the results depend on the processing

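The members at 4 months numbered 56 and also 56 with the deposited LogRatio, 55 with the deposited table and 57 with median centring, but 23 after normexp and loess, all of them members and 20 of them bright in both pools (the 7 bright members lost were Ccl6, Gal3st1, Lepr, Nt5e, Pax8, Rab30 and Thbd). All 56 stayed above 0 on both 4-month arrays there, with a median of 0.97. Counts were 27 for bright probes, 268 at 1.5-fold, 10 at 3-fold, 146 by the array mean, 88 with the families kept, and 449 to 1314 when 1 array was left out. Members 2-fold above control numbered 3 at 1 month, and 9 at 1.5-fold, 5 by the array mean and 5 to 6 without 1 array. At 2 months they numbered 4, and 12 at 1.5-fold, 1 at 3-fold and 7 to 10 without 1 array. The median at 1 month, 0.16, was 0.0512 with the deposited LogRatio, 0.0515 with the table, 0.0929 after normexp, 0.24 for bright probes, 0.25 for members bright at 4 months (an alternative chosen after seeing the data) and 0.14 to 0.20 without 1 array. At 2 months it was 0.40, and 0.19 after normexp, 0.59 for bright probes, 0.48 for members bright at 4 months and 0.40 to 0.42 without 1 array. Members called by limma numbered 0, and 1 with the deposited LogRatio and with the table (NAP026914-1), 3 after normexp, 2 for bright probes and 0 to 2 without 1 array; over all probes the calls were 0, 4, 4, 36, 16 and 0 to 11. The causes were not tested. Of 66 values of named members at 1 and 2 months, 46 stayed within the array SD after normexp and 4 changed sign, while 6 changed sign without replicate 1, 9 without replicate 2, 2 with the deposited LogRatio, 2 with the table and 0 with centring. The slide could not be fitted as a block. No paired analysis was possible because each month has 1 pair of pools and its replicate numbers mark dye orientation.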
